A study of Mus musculus with 4 samples.

Results

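Axon guidance ligands and receptors were measured in RPP631, a line of mouse small cell lung cancer (SCLC). The cells were kept for 48 h with vehicle (DMSO) or with YKL at 100 nM, which the series title presents as an inhibitor of CDK7. Members were the protein-coding genes whose symbols place them among the class 3 to 7 semaphorins, the plexins and neuropilins, the ephrins and Eph receptors, the Slits and Robos, and the netrins with Unc5 proteins and Dcc. This gave 68 genes of 54232 in the table, of which 34 encode ligands and 34 encode receptors, and no member was chosen by its level or its change. RNA was sequenced in bulk from 2 DMSO and 2 YKL libraries of the same line, and the labels give neither its genotype nor whether replicates were separate cultures, and every p-value given here therefore rests on library-to-library spread alone, which may be technical. In bulk RNA, fewer cells of a type and less RNA per cell cannot be told apart.

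Guidance molecules steer growing axons, and the same families act on migrating cells, vessels and epithelia, the lung included. Semaphorins signal through plexins, and most secreted class 3 semaphorins need a neuropilin as co-receptor. Ephrins stay bound to the membrane and activate Eph receptor tyrosine kinases on a neighbouring cell, mostly A ephrins with EphA and B ephrins with EphB receptors. Slits repel through Robo receptors, whereas netrins attract through Dcc and repel through Unc5 receptors.

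The libraries held 29817387 to 34189709 counts assigned to genes. The 14 neuroendocrine SCLC markers summed to between 4703 and 6083 CPM (counts scaled to library size, written CPM throughout) in each library, and none of them was without counts. Nkx2-1, one of these markers, was lower in YKL (403, 408, 168 and 201 CPM in DMSO replicates 1 and 2 and YKL replicates 1 and 2; adjusted p = 0.0189 by edgeR's quasi-likelihood test). Markers of other cell types ranged widely. The 8 immune markers summed to 3.53 and 5.71 CPM in DMSO and 9.04 and 5.62 CPM in YKL, with Cd3e at 0 in every library. The immune gene Ptprc, listed at 0 and 0.0635 CPM in DMSO, reached 0.816 and 0.714 CPM in YKL (adjusted p = 0.0392 by edgeR). These levels rest on 0, 2, 25 and 23 counts. The other immune markers with counts went both ways. Mean levels in DMSO and YKL were 1.93 and 1.67 CPM for Cd68 and 0.170 and 0.0971 CPM for Cd14. They were 1.87 and 3.85 CPM for Lyz2, and Adgre1, Csf1r and Itgam, all under 1 CPM, also had higher means in YKL. The 7 endothelial markers summed to 44.3 to 75.4 CPM, nearly all of it Vwf, and 5 of them lay under 1 CPM. The 7 fibroblast markers summed to 12.7 to 44.8 CPM, of which Pdgfra made up most. The 6 markers of lung epithelium summed to 7.20 to 16.3 CPM. The 7 glial and neuronal markers summed to 312 to 367 CPM, led by Mbp, Snap25 and Gad1 at means of 237, 66.3 and 39.4 CPM over all libraries. The part of these lists in the results that follow was not tested.

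Plxnc1, Sema3g and Epha2 rose in YKL, by 2.81-fold, 2.60-fold and 2.54-fold. None fell by the same test. Of the 68 genes, 61 had counts high enough for testing, and the 3 called make up 4.92% of them, beside 3.54% of all 16749 genes tested (2.1% called higher and 1.44% called lower), so the share of members called was close to that of all genes. The test was edgeR's quasi-likelihood test with Benjamini-Hochberg adjustment over all genes at 0.05. At an unadjusted p under 0.05 there were 12 higher and 7 lower members, 31.1% of those tested beside 21.2% of all genes (11.3% higher and 9.9% lower). Over the 61 tested members the median log2 fold change was 0.08, beside -0.00014 over all genes tested. Both YKL libraries lay outside the DMSO range in 27 members, 16 above and 11 below it, or 44.3% beside 52.3% of all genes. The number called depended on the libraries: 14 and 19 members were called without DMSO replicate 1 or DMSO replicate 2 (7.61% and 14% of all genes), and 1 and 2 when the first or the second YKL library was left out (0.606% and 0.402% of all genes). Each fit with a library left out keeps 1 library in that group, so its spread came from the other pair alone. DESeq2 called 7 members, 5 higher and 2 lower, of 59 with an adjusted p (10.2% of all genes it tested). The authors' deposited table lists 61 members and calls 25 at an adjusted p under 0.05, 16 higher and 9 lower, beside 27.8% of 15908 genes (13.9% in each direction).

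Plxnc1 (ENSMUSG00000074785, chromosome 10, 94790866 to 94944835, mm10) encodes plexin-C1, the receptor of semaphorin 7A. It had 25.3 and 32.2 CPM in DMSO replicates 1 and 2 and 84.2 and 77.5 CPM in YKL replicates 1 and 2. Both YKL libraries thus lay well above both DMSO libraries, and the libraries of a group lay close together. The group levels were 28.7 ± 4.85 and 80.9 ± 4.75 CPM (mean ± SD, n = 2 each), with a log2 fold change of 1.49 ± 0.20 (standard error; adjusted p = 0.0105 by edgeR). The call held in all 12 fits, namely the one reported and 11 alternatives, with log2 fold changes of 1.33 to 1.64 when single libraries were left out. Its exons share 115 bases with Gm48718, a gene with no count in any library.

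Sema3g (ENSMUSG00000021904, chromosome 14, 31217860 to 31230352) encodes a secreted class 3 semaphorin that binds neuropilin-2. Its level was 25.2 and 25.5 CPM in the DMSO libraries and 70.0 and 61.7 CPM in the YKL libraries. The DMSO pair was nearly identical and the YKL pair stood apart from it. The group levels were 25.4 ± 0.221 and 65.9 ± 5.87 CPM, with a log2 fold change of 1.38 ± 0.19 (adjusted p = 0.0111 by edgeR). Without YKL replicate 1 the call was lost (log2 fold change 1.29, adjusted p = 0.0594).

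Epha2 (ENSMUSG00000006445, chromosome 4, 141301240 to 141329384) encodes a receptor tyrosine kinase for A ephrins, ephrin-A1 above all. It had 13.0 and 10.8 CPM in the DMSO libraries and 32.7 and 27.9 CPM in the YKL libraries, again with no overlap. The log2 fold change was 1.35 ± 0.25 (adjusted p = 0.026 by edgeR). This call was the least firm of the 3. It ended with scaling by total count (adjusted p = 0.0506) and when either YKL library was left out (adjusted p = 0.177 for replicate 1 and 0.105 for replicate 2), while the log2 fold change stayed between 1.18 and 1.49 with single libraries left out. In the authors' deposited table, Sema3g, Epha2 and Plxnc1 have the smallest p-values of the listed members, with log2 fold changes of 1.29, 1.26 and 1.33. That table gives Efna3 a log2 fold change of -0.16 with a positive Wald score of 0.23. Its fold changes may therefore not be on the same scale as those of edgeR.

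The promoters of these genes are shown because they are the members that rose. Each line gives 250 bases that precede the transcript start in RefSeq (GRCm38.p6), read 5′ to 3′ along the gene's strand. The start of the counted gene differs somewhat from that of RefSeq, and the Sema3g window reaches past the counted start at 31217860. Capitals mark matches, on either strand, to any of the motifs searched. The TATA box was spelled TATAAA, and the box bound by NF-Y was spelled CCAAT. The GC box, bound by SP1, was spelled GGGCGG. One E-box was spelled CAGCTG, and the E-box of MYC and MAX was spelled CACGTG. No base belongs to matches of 2 of these motifs.
Plxnc1 promoter, chr10:94944846-94945095, minus strand: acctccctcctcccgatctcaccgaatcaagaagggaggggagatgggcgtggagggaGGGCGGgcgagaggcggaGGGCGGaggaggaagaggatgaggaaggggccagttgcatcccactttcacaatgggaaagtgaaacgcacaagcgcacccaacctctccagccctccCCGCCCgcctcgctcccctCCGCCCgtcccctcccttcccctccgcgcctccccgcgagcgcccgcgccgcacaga
Sema3g promoter, chr14:31217623-31217872, plus strand: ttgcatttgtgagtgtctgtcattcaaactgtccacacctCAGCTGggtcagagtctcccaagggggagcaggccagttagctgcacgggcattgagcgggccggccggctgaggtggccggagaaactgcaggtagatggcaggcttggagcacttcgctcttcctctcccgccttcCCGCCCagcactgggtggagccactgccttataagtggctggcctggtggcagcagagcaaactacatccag
Epha2 promoter, chr4:141300971-141301220, plus strand: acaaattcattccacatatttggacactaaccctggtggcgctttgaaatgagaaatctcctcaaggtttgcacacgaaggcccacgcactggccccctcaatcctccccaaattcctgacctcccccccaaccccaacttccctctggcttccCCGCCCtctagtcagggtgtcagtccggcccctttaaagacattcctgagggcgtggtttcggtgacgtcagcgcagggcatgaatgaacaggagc
All 3 windows hold a GC box, with 4 matches in Plxnc1 and 1 each in Sema3g and Epha2. CAGCTG occurs once, in Sema3g, and none of the windows holds the TATA box, the CCAAT box or the MYC E-box as spelled above. GC boxes were frequent around these families in general. RefSeq promoters matched 58 of the 68 members through 74 start sites, of which 70.3% hold GGGCGG, beside 32.7% of all 32851 promoters of this length. CAGCTG is in 16.2% of the members' promoters and 13% of all, CACGTG in 5.41% and 6.02%, CCAAT in 27% and 33.8%, and TATAAA in 2.7% and 12.4%.

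**Figure D1:**
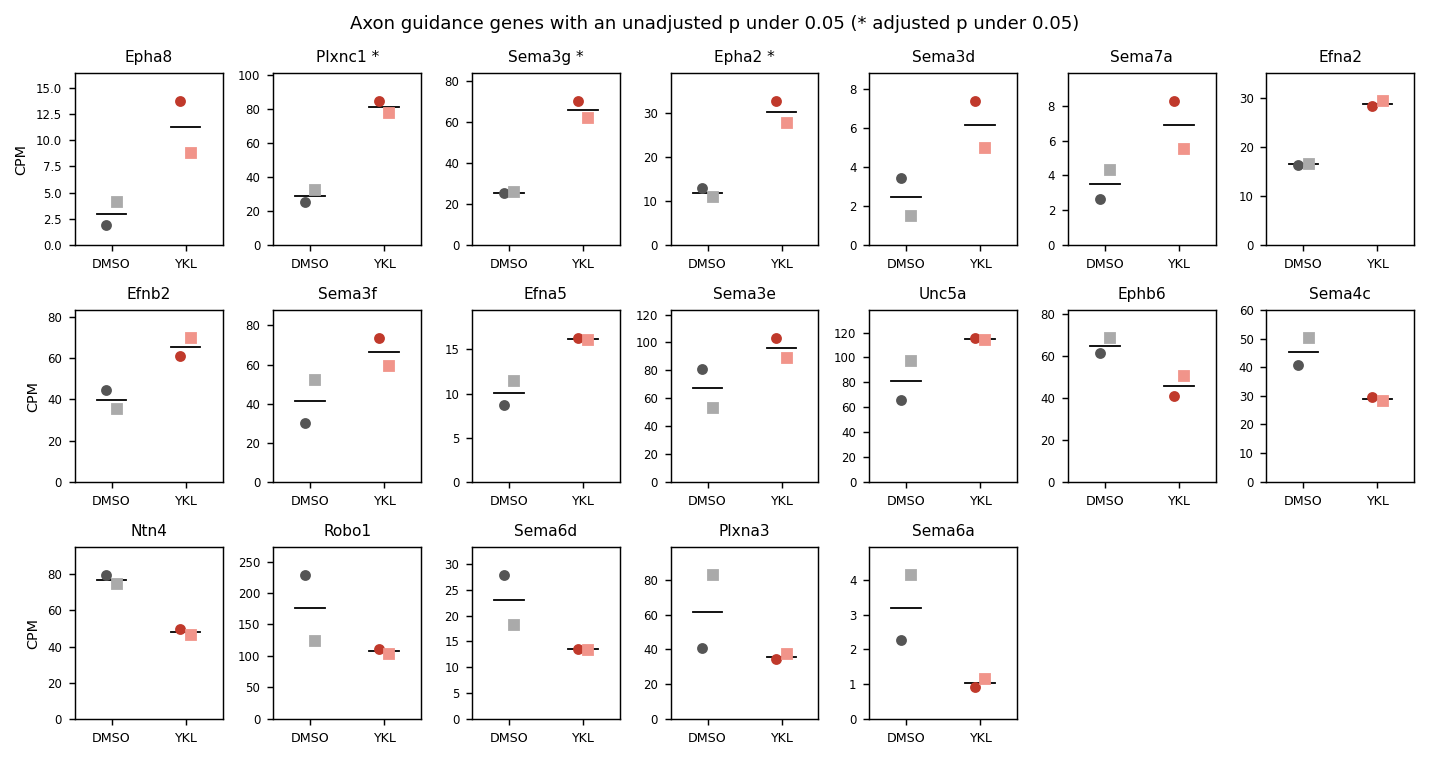
TMM-scaled CPM (linear axis from 0) of the 19 members with an unadjusted p under 0.05, ordered by log2 fold change, with 1 point per library (circle for replicate 1, square for replicate 2) and a line at the group mean. Plxnc1, Sema3g and Epha2, marked with an asterisk, passed the adjusted threshold. In all 19 genes the YKL libraries lie entirely above or entirely below the DMSO libraries, as in 52.3% of all genes tested. A choice of genes by p-value favours such separation, which is therefore no further evidence.

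Levels of the members spanned several orders of magnitude. Set per kilobase of counted exon, so that genes of different length can be compared, 14 of the 61 tested members had a mean above 10 CPM per kilobase, 26 lay between 1 and 10 and 21 below 1. Plxnb2 and Plxnb1 led, whereas the third B plexin gene, Plxnb3, ranked 58 of 61 at a mean of 0.142 CPM per kilobase. Plxnb2, a receptor of class 4 semaphorins, had 35.3 and 43.1 CPM per kilobase in DMSO and 47.5 and 50.1 CPM per kilobase in YKL. Plxnb1, the receptor of semaphorin 4D, had 28.2 and 32.2 CPM per kilobase in DMSO and 28.2 and 24.2 CPM per kilobase in YKL. The lowest Plxnb2 library thus lay above the highest Plxnb1 library. Unc5a, a netrin receptor, came next at 15.7 to 27.7 CPM per kilobase, a range that overlapped that of Plxnb1 and that of Ephb3 (17.3 to 21.0). Ntn4, Ephb6 and Slit1 followed with means of 16.7, 14.6 and 13.7. The 3 members that rose had means over all libraries of 10.1 (Sema3g), 6.56 (Plxnc1) and 4.52 (Epha2) CPM per kilobase and ranked 14, 23 and 25 of 61.

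**Figure D2:**
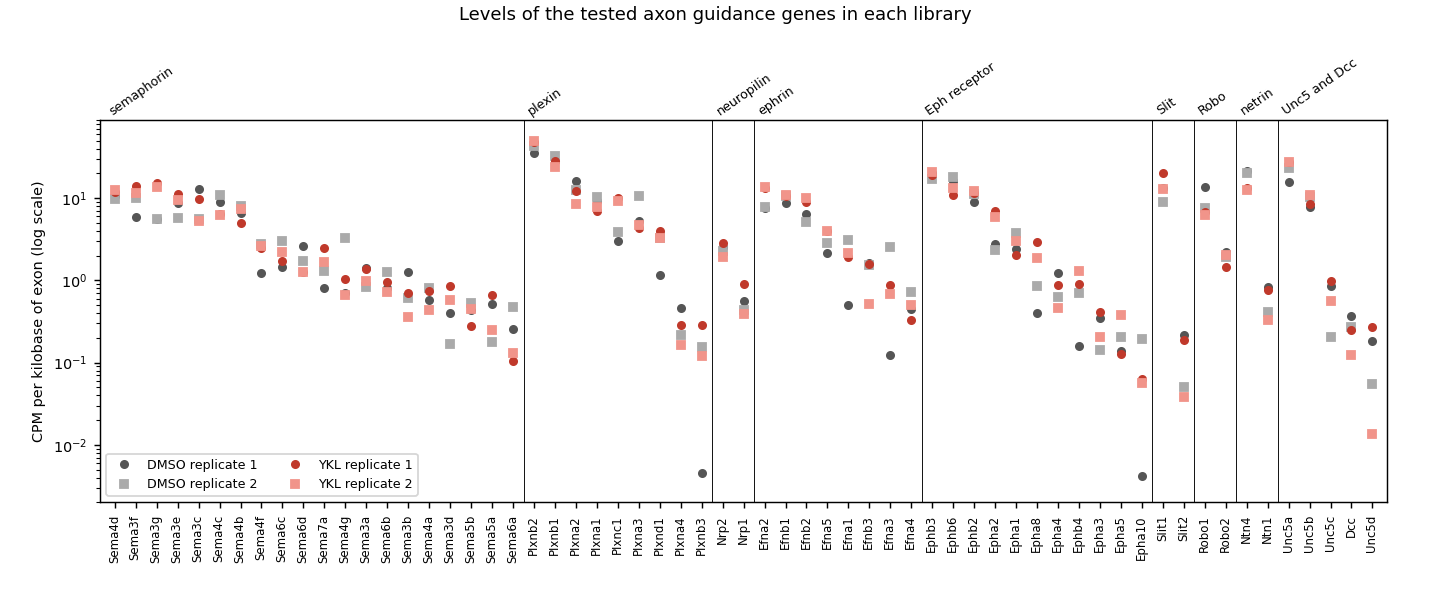
CPM per kilobase of exon (log axis) of the 61 tested members in each of the 4 libraries, grouped by family and ordered by mean level. Plxnb2 and Plxnb1 stand highest, 21 genes have means below 1, and the libraries of a group spread most among the low genes.

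The 7 members that failed the filter were near or at 0. Epha6, an Eph receptor, and Robo4, the endothelial Robo, had no count in any library. A count of 0 allows up to 3 counts, or 0.0897 to 0.0979 CPM per library, and covers counting error only. Epha7 had 1 to 7 counts per library, Ephb1 4 to 10, Robo3 0 to 4, Slit3 3 to 5 and Ntn5 4 to 10. These cues and receptors were thus barely detected, and were too scarce in these libraries for a test. Exons of 17 members overlap those of another gene. The overlap exceeds 10% of the exonic length in 4 of them, Efna3, Efna4, Plxna1 and Ntn5, each with a partner on the other strand. Since the strand setting of the counting is not given, these 4 values are uncertain. The partners of Efna3, Efna4 and Plxna1 had 1 to 13 counts per library. Epha1 and Sema4c share less, 6.01% and 7.27%, but with opposite-strand partners that had more counts. These were Zyx with 1802 to 2982 and D430040D24Rik with 151 to 175, so both values are uncertain too.

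Of the 20 semaphorins, all tested, 1 rose (Sema3g) and none fell, while 5 were higher and 3 lower at an unadjusted p under 0.05. The counts in this and the other families stand beside 3.54% of all genes called. At an unadjusted p under 0.05, 11.3% of all genes were higher and 9.9% lower. Besides Sema3g, 3 class 3 genes are among the 5. Sema3d had 3.44 and 1.46 CPM in DMSO and 7.34 and 4.97 CPM in YKL (log2 fold change 1.33 ± 0.50, adjusted p = 0.168 by edgeR). Sema3f, which signals through neuropilin-2, had 30.2 and 52.2 CPM in DMSO and 73.4 and 59.3 CPM in YKL (0.69 ± 0.27, adjusted p = 0.193 by edgeR). Sema3e, the ligand of plexin-D1, had 80.9 and 53.3 CPM and then 103 and 89.1 CPM (0.52 ± 0.23, adjusted p = 0.232 by edgeR). In each of these the YKL libraries lay above both DMSO libraries, but none passed the adjusted threshold with all libraries. Sema3d and Sema3e passed without DMSO replicate 1 (adjusted p = 0.0124 and 0.0229) and Sema3f without DMSO replicate 2 (adjusted p = 0.000672). With the other DMSO library left out, the log2 fold changes shrank to 0.80 for Sema3d, 0.21 for Sema3e and 0.35 for Sema3f (adjusted p = 0.227, 0.626 and 0.403). The other class 3 genes, Sema3a, Sema3b and Sema3c, had overlapping groups and log2 fold changes of 0.08, -0.82 and -0.32.

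Sema7a, the membrane-anchored ligand of plexin-C1, had 2.66 and 4.31 CPM in DMSO and 8.26 and 5.49 CPM in YKL. Its groups did not overlap and its log2 fold change was 0.98 ± 0.43 (adjusted p = 0.226 by edgeR, 0.0276 without DMSO replicate 2 and 0.386 without DMSO replicate 1). Ligand and receptor of this pair thus lay higher in YKL, but only the receptor gene passed the threshold. On the lower side, Sema4c, a plexin-B2 ligand, had 40.6 and 50.1 CPM in DMSO and 29.5 and 28.4 CPM in YKL (log2 fold change -0.65 ± 0.21, adjusted p = 0.113 by edgeR). Sema6d, a transmembrane ligand of plexin-A1, had 27.8 and 18.2 CPM and then 13.5 and 13.4 CPM (-0.78 ± 0.28, adjusted p = 0.151 by edgeR). Sema6a, a transmembrane ligand of A plexins, had 2.27 and 4.12 CPM and then 0.914 and 1.15 CPM (-1.63 ± 0.51, adjusted p = 0.108 by edgeR). These had no overlap between groups. They passed with a library left out, Sema4c and Sema6a without DMSO replicate 1 (adjusted p = 0.0411 and 0.0191) and Sema6d without DMSO replicate 2 (adjusted p = 0.00442). With the other DMSO library left out, the adjusted p was 0.178 for Sema4c, 0.178 for Sema6a and 0.414 for Sema6d, whose log2 fold change was then -0.44. All 4 class 6 genes had log2 fold changes below 0, as did 8376 of the 16749 genes tested. Sema6c and Sema6b, at -0.19 and -0.29, had overlapping groups. Sema4d, the semaphorin with the highest level per kilobase (mean 11.2), had 80.7 and 75.3 CPM in DMSO and 91.5 and 97.4 CPM in YKL (0.28 ± 0.18, adjusted p = 0.415 by edgeR). Sema4a, Sema4b, Sema4f, Sema4g, Sema5a and Sema5b had log2 fold changes from -1.23 to 0.40 and overlapping groups.

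All 9 plexins were tested, and Plxnc1 alone passed the threshold. Log2 fold changes of the 4 A plexins, the partners of neuropilins in class 3 signalling, were all below 0, between -0.78 and -0.40. Of the 16749 genes tested, 8376 lay below 0. Plxna3 had 40.9 and 82.7 CPM in DMSO and 34.3 and 37.5 CPM in YKL (log2 fold change -0.78 ± 0.32, adjusted p = 0.217 by edgeR). DMSO replicate 2 alone was high. Without it the log2 fold change was -0.22 (adjusted p = 0.626), and without DMSO replicate 1 it was -1.20 (adjusted p = 0.00116). Plxna2 had 279 and 217 CPM and then 207 and 147 CPM, and Plxna1 had 83.8 and 92.6 CPM and then 63.1 and 70.9 CPM, in both cases without overlap between groups (adjusted p = 0.242 and 0.247 by edgeR). Plxna4 had overlapping groups. Plxnb2 had 272 and 332 CPM in DMSO and 367 and 387 CPM in YKL (0.32 ± 0.19, adjusted p = 0.364 by edgeR), and Plxnb1 had 271 and 309 CPM and then 271 and 232 CPM (-0.21 ± 0.18, adjusted p = 0.572 by edgeR). Neither of these abundant receptors passed the threshold in any of the 12 fits. Plxnd1, the receptor of semaphorin 3E, had 8.43 and 24.0 CPM in DMSO and 29.3 and 23.7 CPM in YKL, so that DMSO replicate 1 alone was low. The neuropilins did not separate the groups. Nrp2 had 30.5 and 26.6 CPM in DMSO and 33.6 and 22.9 CPM in YKL (-0.02 ± 0.25, a value whose sign turned under total count and upper quartile scaling), and Nrp1 had 5.56, 4.25, 8.94 and 3.79 CPM in the same order (0.37 ± 0.47).

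**Figure D3:**
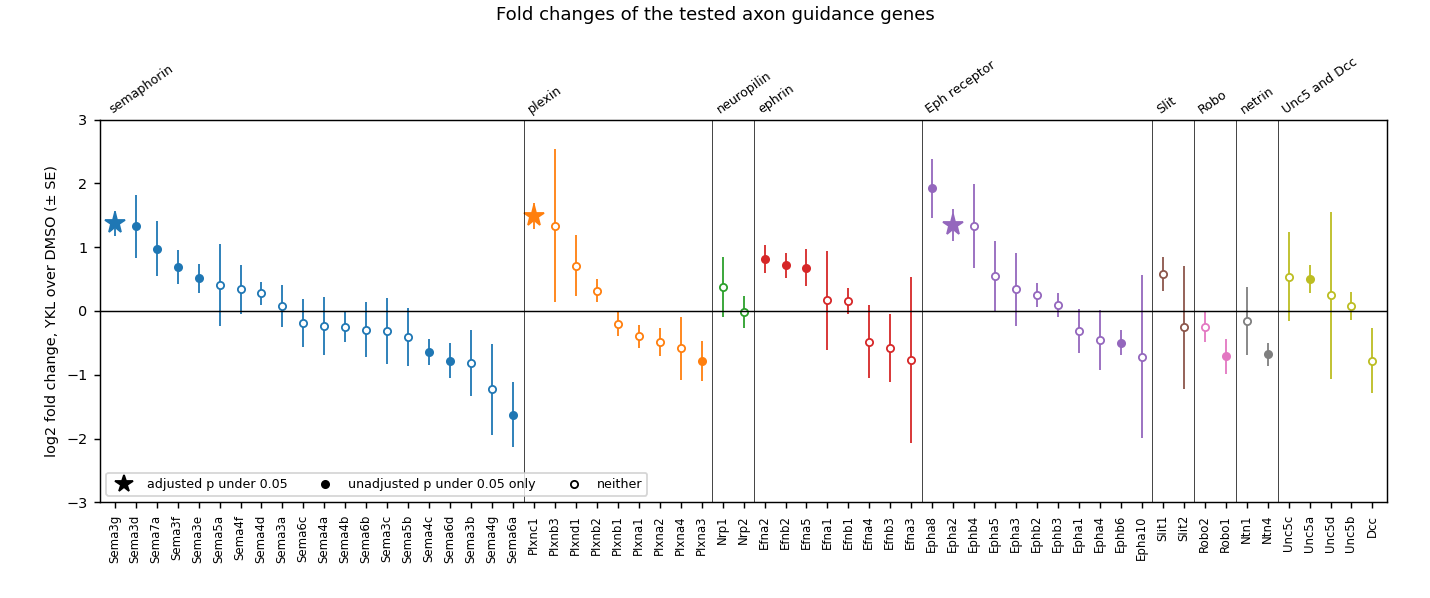
Log2 fold change of YKL over DMSO with its standard error for each of the 61 tested members, grouped by family. Stars mark the 3 genes called at an adjusted p under 0.05 (Plxnc1, Sema3g and Epha2), filled circles the 16 with an unadjusted p under 0.05 only, and open circles the rest.

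None of the 8 ephrins was called by edgeR, 3 were higher at an unadjusted p under 0.05, and none was lower. Efna2, a GPI-anchored A ephrin, had 16.2 and 16.5 CPM in DMSO and 28.3 and 29.2 CPM in YKL. The libraries of each group were nearly equal and the groups lay far apart, yet at a log2 fold change of 0.81 ± 0.23 the adjusted p was 0.0815 by edgeR. DESeq2 called it (adjusted p = 0.0238). It did not pass with RLE, total count or upper quartile scaling (adjusted p = 0.079, 0.0955 and 0.086 by edgeR) or without the filter (adjusted p = 0.0588). With single libraries left out its log2 fold change stayed between 0.79 and 0.84, and it did not pass in any of those fits. Efnb2, the transmembrane partner of EphB4, had 44.3 and 35.2 CPM in DMSO and 61.0 and 69.5 CPM in YKL (0.71 ± 0.20, adjusted p = 0.0846 by edgeR). Efnb2 passed by edgeR without the filter (adjusted p = 0.0336) but not by DESeq2 (adjusted p = 0.0536). The log2 fold change was 0.89 without DMSO replicate 1 and 0.53 without DMSO replicate 2. It was 0.81 without YKL replicate 1 and 0.61 without YKL replicate 2. Of these fits it passed only in that without DMSO replicate 1. Efna5 had 8.76 and 11.4 CPM and then 16.3 and 16.0 CPM (0.68 ± 0.29, adjusted p = 0.212 by edgeR). Efnb1 had 30.0 and 36.6 CPM in DMSO and 36.2 and 38.1 CPM in YKL (0.16 ± 0.21), with overlap between the groups. Groups also overlapped for Efna1, Efna3, Efna4 and Efnb3, at log2 fold changes of 0.17, -0.77, -0.48 and -0.59.

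Of 14 Eph receptors 11 were tested, 1 rose (Epha2) and none fell. Epha8, another receptor for A ephrins, had the highest log2 fold change of the 61 members, 1.92 ± 0.46. Its level was 1.88 and 4.06 CPM in DMSO and 13.7 and 8.82 CPM in YKL, with no overlap and a wide spread in both groups (adjusted p = 0.0541 by edgeR). Epha8 passed in 6 of the 11 alternatives, among them DESeq2 (adjusted p = 0.000388) and RLE scaling (adjusted p = 0.0399). The 6 include the fits that left out a DMSO library, where the spread came from the YKL pair alone. Its log2 fold change was 1.47 without DMSO replicate 1, which lay over 2-fold below every other library, and 2.54 without DMSO replicate 2. It did not pass when either YKL library was left out (log2 fold change 1.57 without replicate 1 and 2.21 without replicate 2). Ephb6, an Eph receptor that lacks kinase activity, had 61.2 and 68.3 CPM in DMSO and 41.1 and 50.4 CPM in YKL (-0.50 ± 0.20, adjusted p = 0.182 by edgeR). Ephb4 had 0.747 and 3.30 CPM and then 4.21 and 5.99 CPM (1.34 ± 0.66, adjusted p = 0.293 by edgeR). The abundant Ephb3 and Ephb2 moved little. Ephb3 had 135 and 115 CPM in DMSO and 127 and 140 CPM in YKL (0.09 ± 0.18), and Ephb2 had 111 and 140 CPM and then 145 and 154 CPM (0.25 ± 0.19). Epha1, Epha3, Epha4, Epha5 and Epha10 had overlapping groups and log2 fold changes from -0.72 to 0.54. The genes Epha8 and Ephb2 are neighbours on chromosome 4, with 93.4 kb between them.

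In the Slit and Robo families no gene was called by edgeR, and 1 had an unadjusted p under 0.05. Robo1, a Slit receptor, had 228 and 124 CPM in DMSO and 111 and 103 CPM in YKL (log2 fold change -0.71 ± 0.28, adjusted p = 0.197 by edgeR). DMSO replicate 1 alone was high. Without it the log2 fold change was -0.20 (adjusted p = 0.629), and without DMSO replicate 2 it was -1.12 (adjusted p = 4.52e-05). Robo2 had 37.3, 32.9, 24.8 and 34.1 CPM in the same order of libraries (-0.25 ± 0.23). Slit1 was the main ligand, with 77.7 and 52.7 CPM in DMSO and 118 and 76.8 CPM in YKL (0.58 ± 0.27, adjusted p = 0.255 by edgeR, and 0.0426 without DMSO replicate 1). Without DMSO replicate 2 the log2 fold change was 0.29, and without YKL replicate 1 it was 0.24 (adjusted p = 0.476 and 0.825). Its lowest YKL library lay just below its highest DMSO library. Slit2 had 5.53 and 1.30 CPM in DMSO and 4.76 and 0.962 CPM in YKL (-0.26 ± 0.96), so that it differed more between replicates than between groups.

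Among netrins and their receptors none was called by edgeR, and 2 had an unadjusted p under 0.05. Ntn4, a netrin of basement membranes related to laminins, had 79.3 and 74.5 CPM in DMSO and 49.7 and 46.6 CPM in YKL. The pairs were tight and apart (log2 fold change -0.68 ± 0.18, adjusted p = 0.0731 by edgeR). DESeq2 called Ntn4 lower (adjusted p = 0.0279), as did edgeR without the filter (adjusted p = 0.025). It did not pass with RLE, total count or upper quartile scaling (adjusted p = 0.0667, 0.0886 and 0.0848) or without the robust prior (adjusted p = 0.0862), all by edgeR. With single libraries left out the log2 fold change ran from -0.76 to -0.63, and Ntn4 passed only without DMSO replicate 2. Ntn1, the ligand of Dcc and Unc5 receptors, had 5.14 and 2.57 CPM in DMSO and 4.83 and 2.08 CPM in YKL (-0.16 ± 0.54). Unc5a had 65.4 and 96.9 CPM in DMSO and 115 and 114 CPM in YKL (0.50 ± 0.22, adjusted p = 0.222 by edgeR, and 0.0177 without DMSO replicate 2). Without DMSO replicate 1 the log2 fold change of Unc5a was 0.25 (adjusted p = 0.552). Unc5b had 49.4, 64.5, 52.4 and 67.6 CPM (0.08 ± 0.22). The groups were apart for Unc5a and overlapped for Unc5b. Dcc, the attractive netrin receptor, had 2.96 and 2.16 CPM in DMSO and 1.99 and 0.993 CPM in YKL (-0.78 ± 0.52, adjusted p = 0.43 by edgeR). Unc5c and Unc5d had overlapping groups.

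Several members differed more between libraries of a group than between groups. In 10 of the 61 tested, replicate 1 was over 1.5-fold above replicate 2 in both groups, 16.4% beside 3.3% of all genes, and the reverse held in 1, Efna4, or 1.64% beside 2.49%. The 10 were Slit2, Unc5c, Unc5d, Sema5a, Sema3b, Sema3c, Epha3, Epha4, Ntn1 and Plxna4, and none of them was called. Sema5a had 9.60, 3.30, 12.4 and 4.66 CPM in DMSO replicates 1 and 2 and YKL replicates 1 and 2, and Unc5d had 1.70, 0.508, 2.51 and 0.124 CPM. Both followed the replicate number and not the treatment. The abundant Sema3c did so too, at 93.1, 39.2, 68.7 and 37.7 CPM. Another 7 members had a DMSO replicate 1 level over 2-fold below every other library, 11.5% beside 4.76% of all genes, namely Epha8, Epha10, Ephb4, Efna1, Efna3, Plxnb3 and Plxnd1. Efna1 had 0.927 CPM there and 5.71, 3.56 and 3.88 CPM in DMSO replicate 2 and the YKL libraries. Efna3, its neighbour on chromosome 3 at a distance of 32.8 kb, had 0.299, 6.19, 2.15 and 1.65 CPM. Plxnb3 had 0.0299, 1.02, 1.86 and 0.776 CPM. The other single-library patterns held fewer members. DMSO replicate 2 was over 2-fold above every other library in 4 members (1.53% of all genes) and below in 2 (1.36%), and YKL replicate 2 was below in 3 (1.75%). No member had DMSO replicate 1, YKL replicate 1 or YKL replicate 2 over 2-fold above the rest (0.442%, 1.16% and 0.185% of all genes) or YKL replicate 1 below it (0.603%). The 2 DMSO libraries differed by a median of 1.52-fold over the tested members and 1.26-fold over all genes, and the 2 YKL libraries by 1.32-fold and 1.19-fold. The tested members were less abundant, with a median of mean levels of 13.1 CPM beside 22.6 CPM for all genes tested, and the part of abundance in this spread was not tested.

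**Figure D4:**
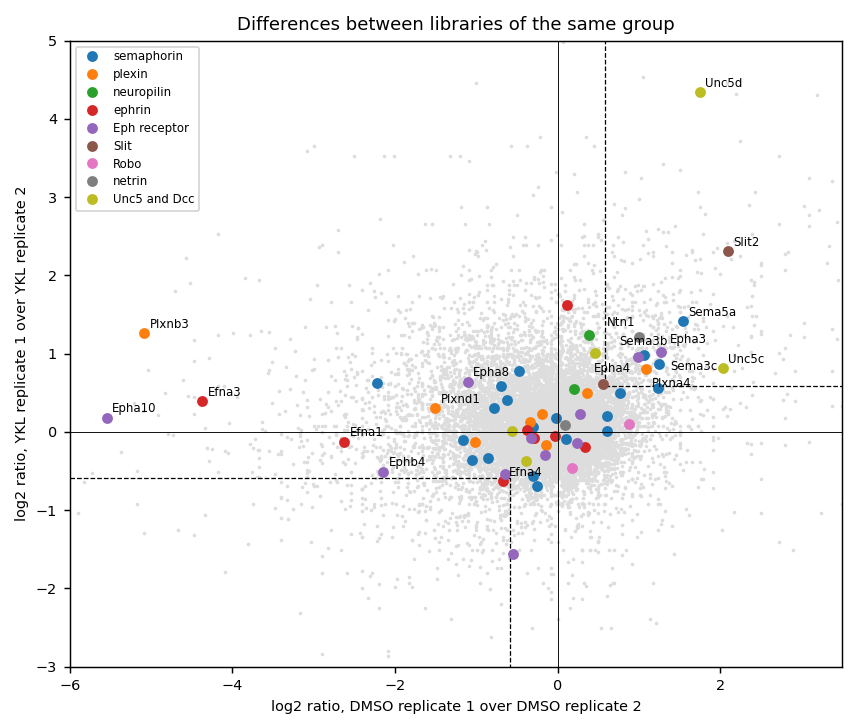
Each point is a gene, with the log2 ratio of DMSO replicate 1 over DMSO replicate 2 on the horizontal axis and of YKL replicate 1 over YKL replicate 2 on the vertical axis, coloured by family for members and grey for the other genes tested (a few grey points lie outside the axes). Dashed boxes hold genes over 1.5-fold apart the same way in both groups, 10 members at the upper right and Efna4 at the lower left, and Epha10, Plxnb3, Efna3, Efna1 and Ephb4 lie far to the left.

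Genes inside the cell that relay these receptors moved in both directions. Of 71 effectors of semaphorin, Eph, Slit and netrin signalling 70 were tested, and 3 rose and 3 fell, with a median log2 fold change of -0.07. At an unadjusted p under 0.05 there were 16 of the 70. Over all genes tested, 3.54% were called and 21.2% had an unadjusted p under 0.05. Dpysl3, a cytoskeletal mediator of semaphorin responses, fell 3.86-fold. It had 124 and 80.3 CPM in DMSO and 20.9 and 31.9 CPM in YKL (log2 fold change -1.95 ± 0.28, adjusted p = 0.0188 by edgeR), and this call held in all 12 fits. Srgap1, a GTPase-activating protein that binds Robo receptors, fell 2.58-fold, from 40.8 and 31.7 CPM to 12.2 and 15.9 CPM (adjusted p = 0.026 by edgeR). Mical2, an enzyme that oxidises actin, fell 1.88-fold, from 102 and 140 CPM to 69.2 and 58.9 CPM (adjusted p = 0.0476 by edgeR). Rhod, a small GTPase, had 1.02 and 0.476 CPM in DMSO and 7.15 and 4.07 CPM in YKL (7.46-fold, adjusted p = 0.0278 by edgeR). Rnd1, a small GTPase that binds plexins, had 10.6 and 14.9 CPM and then 26.7 and 30.2 CPM (2.24-fold, adjusted p = 0.0454 by edgeR). Tiam1, an exchange factor for Rac, had 53.3 and 52.1 CPM and then 105 and 95.4 CPM (1.90-fold, adjusted p = 0.0303 by edgeR). In all 6 the groups did not overlap, which a choice by p-value favours and which held in 52.3% of all genes tested. Apart from Dpysl3, these calls ended without YKL replicate 1 (adjusted p = 0.155 for Srgap1, 0.157 for Mical2, 0.155 for Rhod, 0.173 for Rnd1 and 0.173 for Tiam1), without YKL replicate 2 (0.0747, 0.288, 0.0553, 0.28 and 0.12 in the same order) and with total count scaling. Those of Rnd1 and Mical2 also ended with upper quartile scaling (adjusted p = 0.0676 and 0.0759) and, together with that of Rhod, without the robust prior (adjusted p = 0.0704, 0.0736 and 0.0508).

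**Figure D5:**
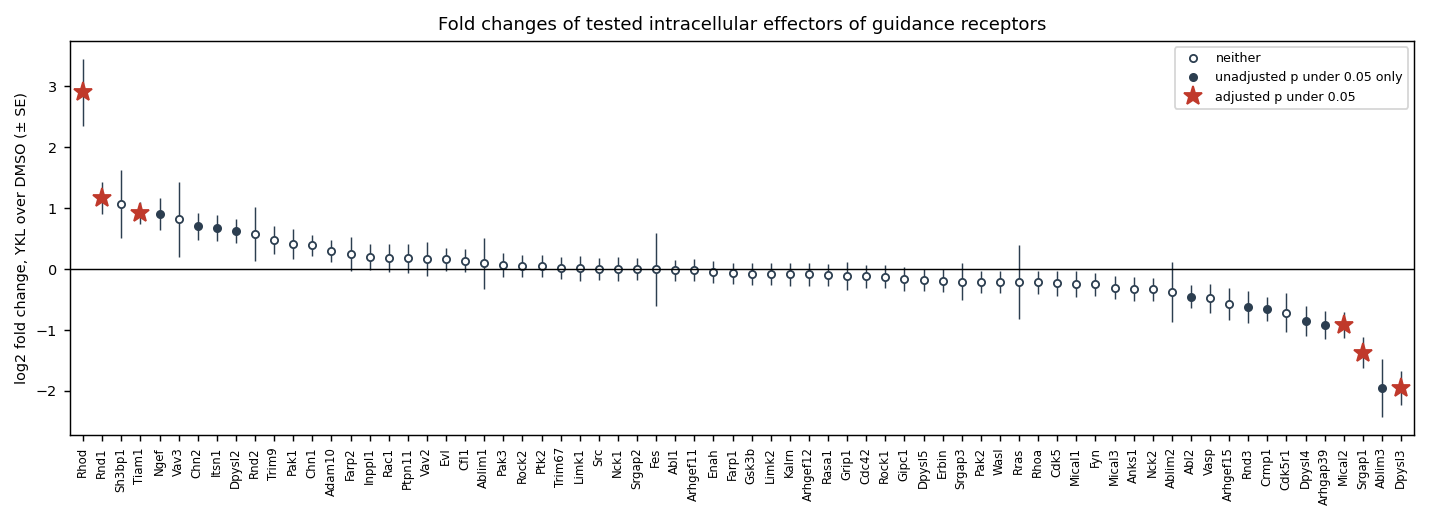
Log2 fold change of YKL over DMSO with its standard error for the 70 tested effector genes, in descending order. Red stars mark the 6 genes called at an adjusted p under 0.05 and filled circles those with an unadjusted p under 0.05 only, with Rhod, Rnd1 and Tiam1 above 0 and Mical2, Srgap1 and Dpysl3 below, and most of the other genes lie near 0.

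Other guidance cues, receptors and adhesion co-receptors outside these families were mostly not called. Of 55 such genes found by symbol, 48 were tested, 1 fell and none rose, with 13 at an unadjusted p under 0.05 (21.2% of all genes, as given above) and a median log2 fold change of 0.05. L1cam, an adhesion molecule that acts with neuropilin-1, fell 2.10-fold, from 123 and 181 CPM in DMSO to 63.0 and 81.9 CPM in YKL (log2 fold change -1.07 ± 0.24, adjusted p = 0.0437 by edgeR). Its groups did not overlap, and 100 of its exonic bases are shared with Arhgap4 on the same strand. The call ended when either YKL library was left out (adjusted p = 0.253 for replicate 1 and 0.109 for replicate 2), with total count or upper quartile scaling and without the robust prior. DESeq2 called 4 of these genes, 3 higher and 1 lower, of 44 with an adjusted p, beside 10.2% of all genes it tested.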

How the data were processed

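RNA from RPP631 cells, 2 libraries in DMSO and 2 in 100 nM YKL for 48 h, was sequenced by the authors. STAR 2.5.2b, featureCounts, DESeq2 and mm10 are named in the submitters' processing notes. The strand setting and annotation release are not given in the sources used here. Raw counts for each gene in each library were deposited, along with exonic lengths. A second table, deposited by the authors, gives their DESeq2 comparison: the signal averaged over scaled libraries, the log2 fold change with its error, the score of the Wald test, and each p-value before and after adjustment. It was joined by symbol, after 28 of 15936 entries without a unique match were dropped, and is named wherever used. Symbols and biotypes came from the deposited gene annotation.

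Testing used edgeR 4.0.16 (R 4.3.3) on these counts. The filter was filterByExpr, set to a minimum count of 10 and a minimum total of 15. TMM gave the scaling, and differences were judged by quasi-likelihood F-tests whose prior was robust and whose residual degrees of freedom were 2. A call needs a Benjamini-Hochberg adjusted p under 0.05 over all 16749 genes tested. Each standard error was obtained as the size of the log2 fold change over the root of its F. Levels are TMM-scaled CPM, also per kilobase of exonic length. Scaling holds the middle of all fold changes near 0, so a shift shared by most transcripts would not show. The common biological coefficient of variation was 25%. Chi-square per degree of freedom between libraries of a pair was 86.6 for DMSO and 37.1 for YKL, so no library was a repeat of another. The fit was tested on simulated data. Individual values are given for every member with a p under 0.05 and, in each family, the 2 with the highest levels and the one with the smallest p. Other members are described by family, some with values that were chosen after they were seen. In the other lists called genes are named. The members, gene lists and tests were chosen with earlier results of these data known. Other settings tried were scaling by RLE, by total count or by upper quartile, no filter, no robust prior, a block for the replicate number, DESeq2 1.42.0, and each library left out in turn. Overlaps were found with bedtools 2.31.1 and figures drawn with matplotlib 3.10.9. No batch is given in the labels. Promoter sequences are RefSeq's, of build GRCm38.p6.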

Additional observations from a re-analysis of the deposited data

How the results depend on the processing

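Over all 16749 genes tested 593 were called (3.54%). Total count scaling gave 169 (1.01%) and upper quartile scaling 331 (1.98%). The replicate block gave 1387 (8.28%), and the fit without the robust prior gave 236 (1.41%). Without the filter 1740 of 30066 were called (5.79%), and DESeq2 called 1466 of 14327 (10.2%). The counts for members and lists below stand beside these shares. Leaving out 1 library gave 71 to 2453. Instead of 3 axon guidance members, 11 were called without the filter, 7 with the replicate block and 7 by DESeq2, and 1 to 19 with a library left out. Instead of 6 effectors, 1 was called with total count scaling, 14 without the filter, 12 with the replicate block, 3 without the robust prior, 11 by DESeq2, and 1 to 17 with a library left out. Instead of 1 other guidance gene, edgeR called 0 with total count scaling, 0 with upper quartile scaling and 0 without the robust prior (13 at an unadjusted p under 0.05 in each), 6 without the filter and 4 with the replicate block, and DESeq2 called 4. With a library left out the count was 0 to 14. The cause of these differences was not tested.

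The labels do not say what a replicate number shares. Deviations of same-numbered libraries from their group means correlated at 0.152 over genes, and with 2 pairs this does not establish a pairing. The members called with the replicate block beyond the 3 were Epha8, Efna2, Efnb2 and Ntn4 (adjusted p = 0.0148, 0.0458, 0.0378 and 0.0392). Signs turned for genes that were not called. Nrp2 went from -0.02 to 0.0024 with total count and 0.012 with upper quartile scaling. With single libraries left out its log2 fold change ran from -0.31 to 0.23, that of Nrp1 from -0.37 to 0.86, of Ephb3 from -0.054 to 0.22, of Ntn1 from -0.89 to 0.43, of Slit2 from -1.82 to 1.13 and of Unc5b from -0.12 to 0.25. No called gene among those named changed sign in any alternative. In these libraries 7 members had too few counts for a test.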
